A study of Rattus norvegicus with 34 samples.

Results

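The transforming growth factor-β (TGF-β), activin and bone morphogenetic protein (BMP) genes were examined in the left ventricle (LV) and in peripheral blood mononuclear cells (PBMCs) of male Wistar rats, 2 months after the left coronary artery had been ligated or a sham operation done. The group was a list of 53 gene symbols, written from knowledge of the pathway. Earlier results of these data were known when it was chosen, so counts of its members are no independent evidence. Of these, 50 had a row of their own among the 14506 symbols that the array annotation pairs with a single gene, and Tgfbr2, Ski and Skil, which had none, were not analysed here. The 50 measured members were 10 ligands of the TGF-β and activin branch, 9 BMP ligands, 10 receptors, 8 Smads, 2 intracellular inhibitors, 8 extracellular or membrane inhibitors and 3 Id genes. Where a symbol had several rows, the brighter was taken in each tissue, and this concerned only Smurf2.

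Most ligands of this family bind pairs of type I and type II serine/threonine kinase receptors. The receptors of TGF-β and activin phosphorylate Smad2 and Smad3, those of BMPs phosphorylate Smad1, Smad5 and Smad9, and both sets join Smad4 and enter the nucleus. Secreted binding proteins such as follistatin, noggin and gremlin hold ligands off their receptors, while Smad6, Smad7 and the Smurf ubiquitin ligases act within the cell. In the injured heart TGF-β is best known for driving fibroblasts to become myofibroblasts and to lay down collagen.

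Expression was measured with Affymetrix Rat Gene 1.0 ST arrays, 1 array for each sample. LV was sampled from 6 sham-operated rats, 6 rats with a small infarct (S-MI), 6 with a moderate infarct (M-MI) and 5 with a large infarct (L-MI). PBMCs came from 6 rats of the sham group and 5 of the L-MI group. The whole LV was used in the sham group, and in the infarcted rats the part of LV where no scar could be seen. All values are log2 signals of the authors, and the number of arrays limits their precision. The array medians of LV (6.52 to 6.61) and of PBMCs (6.97 to 7.01) were apart, and levels of the members are therefore compared within a tissue only, while sums of marker genes serve to check the tissue labels. In LV the summed signal of 10 cardiomyocyte markers lay between 16.42 and 16.55 on the log2 scale, against 9.45 to 9.59 in PBMCs. Conversely, that of 7 T cell markers lay between 14.52 and 14.78 in PBMCs and between 9.82 and 10.63 in LV. For L-MI replicate 1 the label texts conflict in both tissues, since the title gives a large infarct and the description a compensated injury, and the title was followed. On the first principal component of LV, the sham arrays 4 and 6 stood with the S-MI arrays 4 and 5 at one end, between -138 and -112, and L-MI replicate 4 stood alone at the other, at 165 with the next array at 64.8. In bulk samples such as these, fewer cells of a type and less RNA per cell cannot be told apart.

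In LV of rats with L-MI, 7 of the 50 members were upregulated in comparison with the sham group, and all of them encode secreted proteins. They were the ligands Tgfb1, Tgfb2, Inhba, Gdf15 and Bmp6 and the ligand-binding proteins Fstl1 and Fstl3. Downregulated members numbered 0 of 50 by limma, and 0 by the same model without moderation. At an unadjusted p under 0.05, 18 members had a positive change and 0 a negative one, where 21.5% of all transcript clusters passed in either direction. A call required a 1.3-fold change or more together with a limma p of 0.05 or less after adjustment by the method of Benjamini and Hochberg over all 29214 transcript clusters, the gene-level units of the array. Over all transcript clusters, 2.08% were called higher and 1.14% lower. The median change of the members was 0.10 on the log2 scale, and that of all transcript clusters -0.01. Of the members, 39 of 50 had a positive change, against 48% of all transcript clusters.

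**Figure D1:**
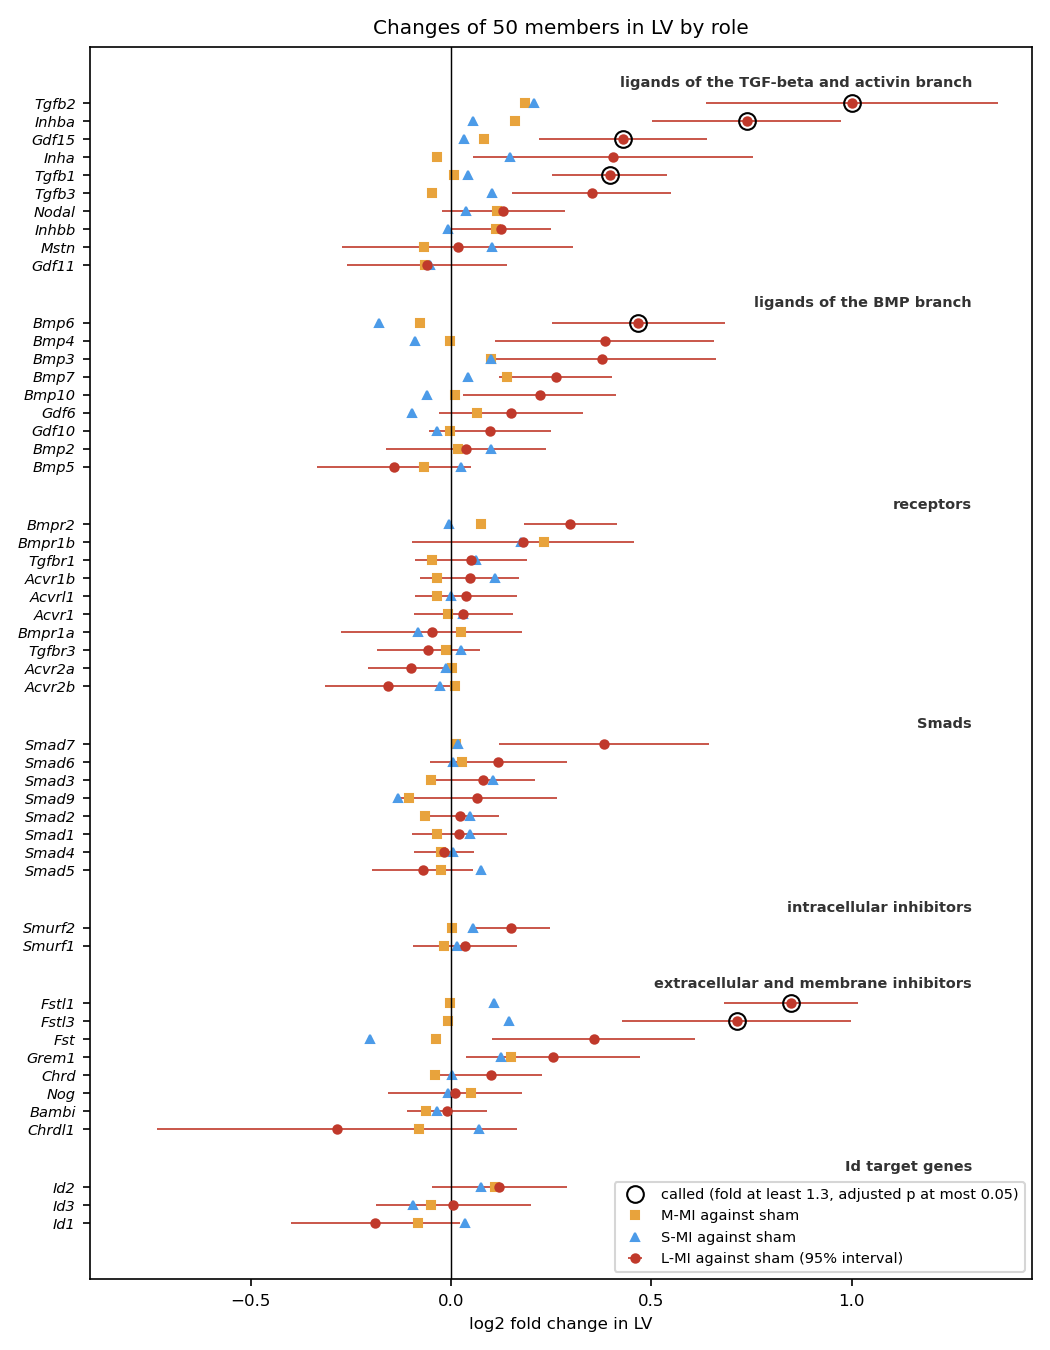
Log2 fold change in LV (x axis) of the 50 measured members, ordered by role, for L-MI (circles, bars are 95% confidence intervals), M-MI (squares) and S-MI (triangles), each against the same 6 sham arrays. Ringed circles are the 7 members called in L-MI, all of them among the ligands and extracellular inhibitors, while receptors, Smads and Id genes have no ringed circle.

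The ligands of the TGF-β and activin branch held 4 of the 7 calls among their 10 members, with a median change of 0.37. Tgfb2, one of the 3 TGF-β isoforms, had the largest change of all members. In the L-MI arrays the log2 signal of Tgfb2 was 9.05, 8.12, 8.69, 9.51 and 9.44. In the sham group it ran from 7.75 through a median of 7.96 to 8.18, and it reached at most 8.55 with S-MI and 8.36 with M-MI. Thus 4 of the L-MI arrays lay above every other array and the lowest, replicate 2, lay within the range of the sham group. The change of Tgfb2 was 1.0 (SE 0.18, adjusted p = 0.000543), a 2-fold rise.

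Inhba encodes the βA subunit, of which activin A is a dimer. Its log2 signal was 7.99, 7.35, 7.56, 7.80 and 8.01 in L-MI, and in the sham group the lowest, median and highest values were 6.79, 7.05 and 7.16. All L-MI arrays exceeded all sham and M-MI arrays, and 1 S-MI array (7.38) exceeded the lowest L-MI array. The change of Inhba was 0.74 (SE 0.11, adjusted p = 0.00015).

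Tgfb1, the isoform most often studied in fibrosis, had the log2 signals 9.83, 9.48, 9.63, 9.69 and 9.87 in L-MI. Sham arrays ran from 9.14 to 9.41 with a median of 9.32, so the groups did not overlap. Among the 18 arrays without a large infarct, only S-MI replicate 4 (9.51) lay above the lowest L-MI array. Tgfb1 rose by 0.40 (SE 0.07, adjusted p = 0.000498), which is a change just past the fold threshold. In the study's own quantitative PCR of LV with L-MI, the rise of Tgfb1 was not significant, while that of Tgfb2 was. Tgfb3, the remaining isoform, gave 9.48, 9.0, 8.92, 9.07 and 9.29 in L-MI against 8.62, 8.85 and 8.89 (lowest, median and highest) in the sham group. These groups did not overlap either, but the change of 0.35 (SE 0.10, adjusted p = 0.02) was a fold of 1.28, below the threshold.

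Gdf15 encodes a distant family member that is secreted under cell stress. It was counted in this branch by the list only, and whether it acts through Smad2 or Smad3 was not tested. L-MI arrays had Gdf15 signals of 6.92, 6.71, 7.06, 7.24 and 7.29, and the sham group ran from 6.45 through 6.55 to 6.90. All L-MI arrays but replicate 2 lay above the highest sham array, replicate 1 by the smallest margin. Gdf15 changed by 0.43 (SE 0.10, adjusted p = 0.00723). Of the remaining ligands of this branch, Inha, the α subunit that turns activin chains into inhibin, had the smallest p, with a change of 0.41 (SE 0.17, adjusted p = 0.153). The changes of Inhbb, Gdf11, Mstn and Nodal lay between -0.06 and 0.13, and none passed the test.

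Of the 9 BMP ligands only Bmp6 was called, and their median change was 0.22. Bmp6 is known above all as the signal by which the liver senses iron. Its log2 signals in L-MI were 9.31, 8.96, 9.38, 9.37 and 9.52, and in the sham group the lowest was 8.58, the median 8.86 and the highest 9.01. Replicate 2 lay within the sham range and the other 4 above it. The change of Bmp6 was 0.47 (SE 0.10, adjusted p = 0.00454). Bmp7, a ligand often described as opposing TGF-β in fibrosis, changed by 0.26 (SE 0.07, adjusted p = 0.0147), below the fold threshold, with all L-MI arrays (6.48 to 6.69) above all sham arrays (6.18 to 6.42). The other 7 BMP ligands did not pass the test and had changes between -0.14 for Bmp5 and 0.38 for Bmp4.

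**Figure D2:**
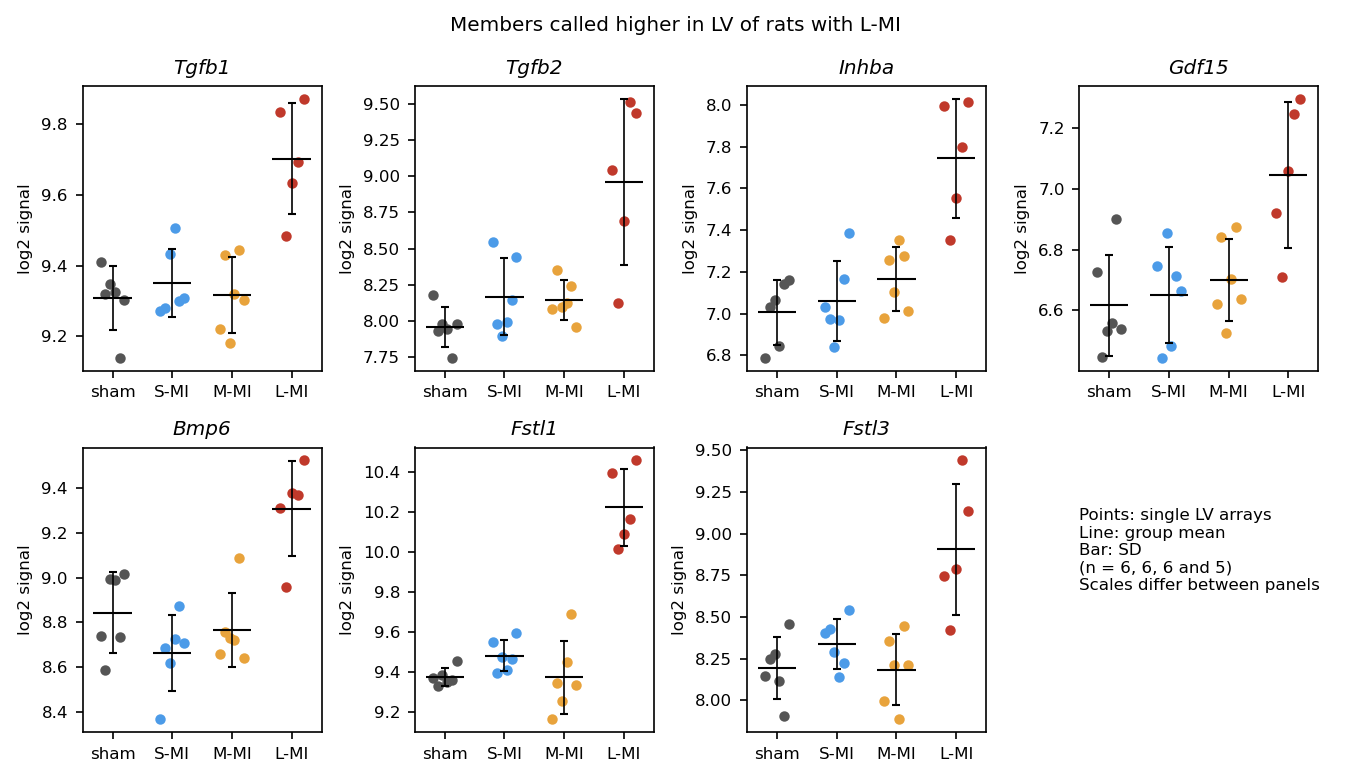
Log2 signal (y axis, a scale of its own for each gene) of the 7 called members in every LV array of the sham, S-MI, M-MI and L-MI groups (n = 6, 6, 6 and 5). Points are arrays, lines are means and bars are SDs, and only for Fstl1 do all 5 L-MI points lie above all 18 others.

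Among the 8 extracellular and membrane inhibitors 2 were called, with a median change of 0.18 for the group. Fstl1, a follistatin-like glycoprotein of the extracellular space, had the smallest p of all members. Its log2 signal was 10.40, 10.01, 10.09, 10.16 and 10.46 in L-MI and ran from 9.33 through 9.37 to 9.46 in the sham group. The lowest L-MI array (10.01) lay above all 18 arrays of the other groups, the highest of which was an M-MI array at 9.69. The change of Fstl1 was 0.85 (SE 0.08, adjusted p = 8.83e-07), or 1.8-fold. Fstl3 binds activins, myostatin and Gdf11, and its signal was 8.75, 8.42, 8.79, 9.44 and 9.14 in L-MI. In the sham group Fstl3 had a lowest value of 7.91, a median of 8.20 and a highest value of 8.46, so that again 4 L-MI arrays lay above the range and replicate 2 within it. Fstl3 changed by 0.71 (SE 0.14, adjusted p = 0.0013).

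Follistatin itself, Fst, with the smallest p of the other inhibitors, changed by 0.36 (SE 0.12, adjusted p = 0.0721). Changes of the BMP antagonists Nog, Grem1, Chrd and Chrdl1 and of the pseudoreceptor Bambi lay between -0.28 and 0.25, and none passed.

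The 10 measured receptors gave 0 calls, and their median change was 0.03. Tgfbr1, the type I receptor of TGF-β, had the log2 signals 8.58, 8.37, 8.37, 8.19 and 8.48 in L-MI. The sham arrays of Tgfbr1 lay between 8.30 and 8.39 around a median of 8.34, so that the L-MI arrays stood on both sides of them. The difference was 0.05, with a 95% confidence interval from -0.09 to 0.19. Only Bmpr2, the type II receptor of BMPs, had an adjusted p under 0.05 among the receptors, with a change of 0.30 (SE 0.06, adjusted p = 0.000984), less than 1.3-fold. All 5 L-MI arrays of Bmpr2 (11.04 to 11.32) lay above all sham arrays (10.77 to 10.92) as well as above all M-MI and S-MI arrays, the highest of which was 11.01.

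Among the 8 Smads no gene was called, and the median change was 0.04. Smad2 gave 8.61, 8.56, 8.57, 8.51 and 8.59 in L-MI and 8.48, 8.54 and 8.66 as the lowest, median and highest values of the sham group. Smad3 gave 7.66, 7.56, 7.65, 7.65 and 7.40 against 7.42, 7.50 and 7.56, and Smad4 gave 10.29, 10.21, 10.31, 10.19 and 10.26 against 10.21, 10.27 and 10.30. For each of these Smads the groups overlapped. The intervals of their differences were -0.08 to 0.12 for Smad2, -0.05 to 0.21 for Smad3 and -0.09 to 0.06 for Smad4, all within the 1.3-fold threshold (0.38 on the log2 scale). Smad7, an inhibitory Smad, had the largest change of the Smads, 0.38 (SE 0.13, adjusted p = 0.0616). The remaining 4 lay between -0.07 and 0.12.

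Smurf2, a ubiquitin ligase that turns over receptors and Smads, had a change of 0.15 (SE 0.05, adjusted p = 0.048), and its other, dimmer transcript cluster one of 0.06 (adjusted p = 0.735). The Id genes, which BMP-activated Smads induce, gave 0 calls of 3, and the change of Id1 was -0.19 (SE 0.10, adjusted p = 0.295).

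In all, 11 of the 50 members had an adjusted p of at most 0.05 without regard to fold, where 9.48% of all transcript clusters did. In 6 members (Tgfb1, Tgfb3, Inhba, Bmp7, Bmpr2 and Fstl1) every L-MI array lay above every sham array, which holds for 3.1% of all transcript clusters. In 0 members did every L-MI array lie below, which holds for 3.87%.

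The 7 calls leaned unequally on the 5 L-MI arrays. Replicate 2 was the lowest of the 5 for all 7 called members, with a mean difference of 0.25 from the sham means, while the other arrays had mean differences of 0.56 to 0.92. Replicate 2 exceeded every sham array for 3 of the 7 members, and each of the other 4 arrays did so for 7. Over all 608 transcript clusters called higher, replicate 2 was the lowest in 395 (65%). The summed signal of 9 macrophage and monocyte markers was 12.32 in replicate 2 and between 12.60 and 12.97 in the other L-MI arrays, and that of 6 myofibroblast markers 12.15 against 12.26 to 12.56. Without replicate 2, 13 members were called, as Tgfb3, Inha, Bmp3, Bmp4, Smad7 and Fst joined the 7, and the background rose to 4.09% of transcript clusters. Of the genes that joined, Bmp3 lay among the 30% dimmest transcript clusters of LV. Without replicate 5 there were 5, against 2.88% of transcript clusters, as Tgfb1 and Gdf15 were lost. Tgfb1 was also lost without L-MI replicate 1 or without sham replicate 5, which left 6 calls. Leaving out L-MI replicate 4, which stood alone on the first component, kept all 7 calls and added Smad7, while the change of Fstl3 went from 0.71 to 0.58 and that of Tgfb2 from 1.0 to 0.86. Tgfb3 joined without L-MI replicate 3, and Bmp4 without sham replicate 6. With the sham arrays 4 and 6 and the S-MI arrays 4 and 5 left out there were 9 calls, against 3.01% of transcript clusters, as Gdf15 was lost (adjusted p = 0.0503) and Tgfb3 (0.38, adjusted p = 0.0461), Bmp4 (0.52, adjusted p = 0.0281) and Smad7 (0.46, adjusted p = 0.0482) were gained.

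**Figure D3:**
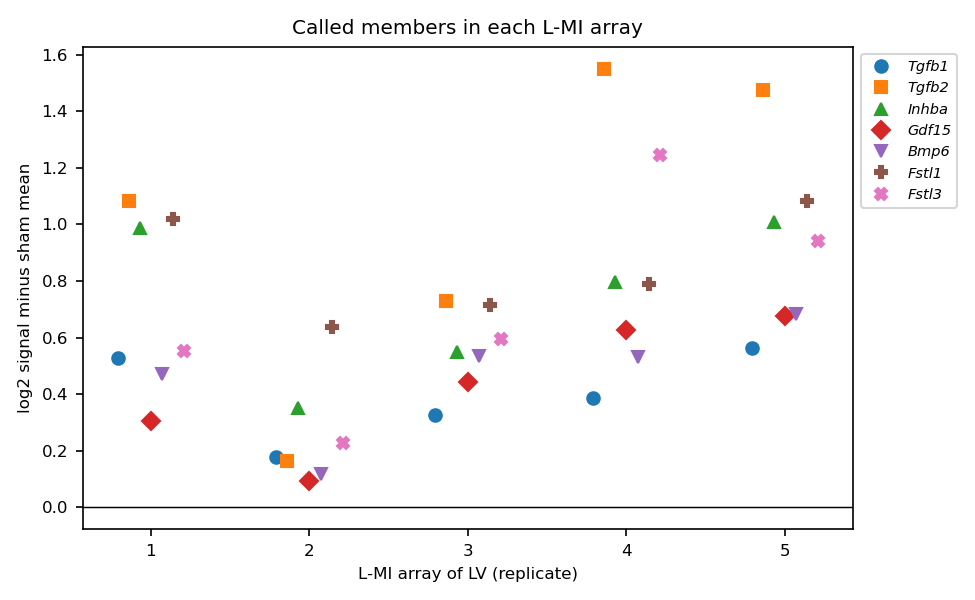
Difference of each L-MI array of LV from the mean of the 6 sham arrays (y axis, log2) for the 7 called members, by replicate (x axis). Replicate 2 has the lowest value of every gene, with a mean of 0.25.

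Small and moderate infarcts were compared with the same 6 sham arrays as L-MI, so the comparisons are not independent of each other. With M-MI, 0 of 50 members and 0 of the 29214 transcript clusters (0%) were called, with limma and without moderation of the variances alike. At an unadjusted p under 0.05 there was 1 member, Bmp7, with a change of 0.14 (unadjusted p = 0.0423 in the limma model, not an exact test), where 7.03% of all transcript clusters passed. With S-MI, again 0 members and 0 transcript clusters (0%) were called by both, and 0 members but 6.33% of transcript clusters had an unadjusted p under 0.05. The smallest adjusted p of any transcript cluster was 0.293 with M-MI and 0.113 with S-MI. The median change of the members was -0.01 with M-MI, with 22 of 50 positive, and 0.03 with S-MI, with 33 positive. Of all transcript clusters, 48.7% had a positive change with M-MI and 51.1% with S-MI.

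The 7 members called in L-MI had small changes in both. Tgfb2 changed by 0.18 with M-MI and 0.21 with S-MI, Inhba by 0.16 and 0.06, Tgfb1 by 0.01 and 0.04, and Gdf15 by 0.08 and 0.03. Bmp6 changed by -0.08 and -0.18, Fstl1 by -0.00 and 0.11, and Fstl3 by -0.01 and 0.15. Their intervals still leave room for some changes, and that of Tgfb2 reached from -0.16 to 0.53 with M-MI and from -0.14 to 0.56 with S-MI. For Fstl1 they were narrower, from -0.16 to 0.16 and from -0.05 to 0.27.

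The large infarct was also tested against the other infarcts directly. Against M-MI, 7 members were called higher and 0 lower, where 1.99% of transcript clusters were higher and 0.695% lower. These were Tgfb1, Tgfb2, Tgfb3, Inhba, Bmp6, Fstl1 and Fstl3. Tgfb2 differed by 0.82 (SE 0.18, adjusted p = 0.00416), Inhba by 0.58 (SE 0.11, adjusted p = 0.00182) and Fstl1 by 0.85 (SE 0.08, adjusted p = 1e-06). Gdf15 differed by 0.35 (adjusted p = 0.0379), a fold of 1.27. Without L-MI replicate 2, 12 members were called, and 3.4% of all transcript clusters. The call of Tgfb1 was lost when any of 4 of the 11 arrays compared was left out, and that of Tgfb3 with any of 3.

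Against S-MI there were 8 calls, again 0 of them lower, with 1.57% of transcript clusters higher and 0.911% lower. Here Tgfb2, Inhba, Gdf15, Bmp6, Fstl1 and Fstl3 were joined by Bmp4, with a difference of 0.47 (SE 0.13, adjusted p = 0.0277), and Fst, with 0.56 (SE 0.12, adjusted p = 0.00555). The call of Bmp4 was lost when any of 6 of the 11 arrays compared was left out, with an adjusted p of up to 0.0916, and that of Gdf15 with any of 4. Bmp4 was named after its values had been seen. Tgfb1 differed by 0.35 (adjusted p = 0.00219), a fold of 1.28. For Bmp4, Fst and Fstl3 the S-MI arrays themselves stood at -0.09, -0.20 and 0.15 from the sham mean. With only the S-MI and L-MI arrays in the fit the calls numbered 4 (2.02% of transcript clusters), and with the 2 sham and 2 S-MI arrays named above left out, 5 (1.74%). Every L-MI array lay above every M-MI array for 4 members (Tgfb1, Inhba, Bmpr2 and Fstl1) and above every S-MI array for 4 (Bmp6, Bmpr2, Fst and Fstl1), which holds for 2.81% and 2.05% of all transcript clusters, respectively.

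The promoters of the called members were searched for the sequence CAGAC, the core to which Smad3 and Smad4 bind, on both strands, in the 250 bases before the transcription start given by RefSeq on the build GRCr8. A promoter was listed for 43 of the 53 members and for all 7 called. A member with several start sites counted if any of them held a match, whereas the shares of all promoters count each start site once. At least 1 match was held by 2 of the 7 called members, Fstl3 with 2 matches and Gdf15 with 1, by 9 of the 43 members (20.9%) and by 42.9% of all 33465 promoters. The GC-rich Smad site GGCGCC, which reads the same on both strands, was found for 0 of the 7, 13 of the 43 (30.2%) and 8.69% of all promoters. A TATA box (TATAAA, either strand) stood in those of Fstl3, Gdf15 and Inhba, against 7 of the 43 (16.3%) and 12.9% of all, and the AP-1 site TGACTCA on either strand in 0 of the 7, 1 of the 43 and 4.05% of all. No motif searched contains another. The promoters of Fstl3 and Gdf15 are shown because they hold the matches, and those of Fstl1 and Tgfb2 because these genes had the smallest p and the largest change and hold none. Capitals mark the CAGAC matches, here read from the opposite strand, and the sequences run 5′ to 3′ on the strand of the gene. The start site of Gdf15 is the second of the pair listed.
Fstl3, chr7:10579845-10580094, minus strand: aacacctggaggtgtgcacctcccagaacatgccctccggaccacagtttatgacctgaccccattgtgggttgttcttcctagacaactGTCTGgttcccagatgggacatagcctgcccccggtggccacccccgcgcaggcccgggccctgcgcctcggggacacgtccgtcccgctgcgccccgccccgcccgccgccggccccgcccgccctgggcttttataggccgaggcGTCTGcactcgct
Gdf15, chr16:18839015-18839264, plus strand: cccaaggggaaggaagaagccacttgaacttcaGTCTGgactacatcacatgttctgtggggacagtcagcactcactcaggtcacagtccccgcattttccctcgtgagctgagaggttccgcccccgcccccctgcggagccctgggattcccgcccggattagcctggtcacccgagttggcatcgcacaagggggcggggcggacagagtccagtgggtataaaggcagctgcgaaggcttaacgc
Fstl1, chr11:76454054-76454303, minus strand: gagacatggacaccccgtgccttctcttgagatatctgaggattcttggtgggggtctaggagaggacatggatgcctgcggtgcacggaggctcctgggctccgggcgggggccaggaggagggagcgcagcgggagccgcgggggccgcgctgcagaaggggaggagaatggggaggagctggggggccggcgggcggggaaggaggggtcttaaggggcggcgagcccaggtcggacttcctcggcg
Tgfb2, chr13:100792686-100792935, minus strand: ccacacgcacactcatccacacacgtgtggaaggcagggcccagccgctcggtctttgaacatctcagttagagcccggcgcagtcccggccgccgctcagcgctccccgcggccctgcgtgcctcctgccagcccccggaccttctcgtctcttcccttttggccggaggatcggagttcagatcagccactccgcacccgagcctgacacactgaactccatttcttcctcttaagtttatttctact
A match is a description of these letters only, and binding was not measured.

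Other genes of the pathway were read from lists that hold no member. For comparison, 2.08% of all transcript clusters were called higher and 1.14% lower in LV of L-MI against sham. TGF-β is secreted in a latent form, bound to matrix proteins and freed by proteases, thrombospondin and integrins. Of 24 listed genes of this storage and activation 22 were measured, and 11 were called higher and 0 lower in LV of L-MI, with a median change of 0.44. The smallest p values were those of Bgn, which encodes the matrix proteoglycan biglycan, with a change of 1.15 (SE 0.09, adjusted p = 1.13e-07), and of Ltbp2, a latent TGF-β binding protein, with 1.40 (SE 0.13, adjusted p = 6.17e-07). Next came Aspn, another small proteoglycan that binds TGF-β, with 0.86 (SE 0.10, adjusted p = 7.01e-06), and Fbn1, the microfibril protein fibrillin-1, with 1.17 (SE 0.14, adjusted p = 1.11e-05). Many of these genes are also made by fibroblasts as matrix components. With M-MI and S-MI 0 of the 22 were called.

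**Figure D4:**
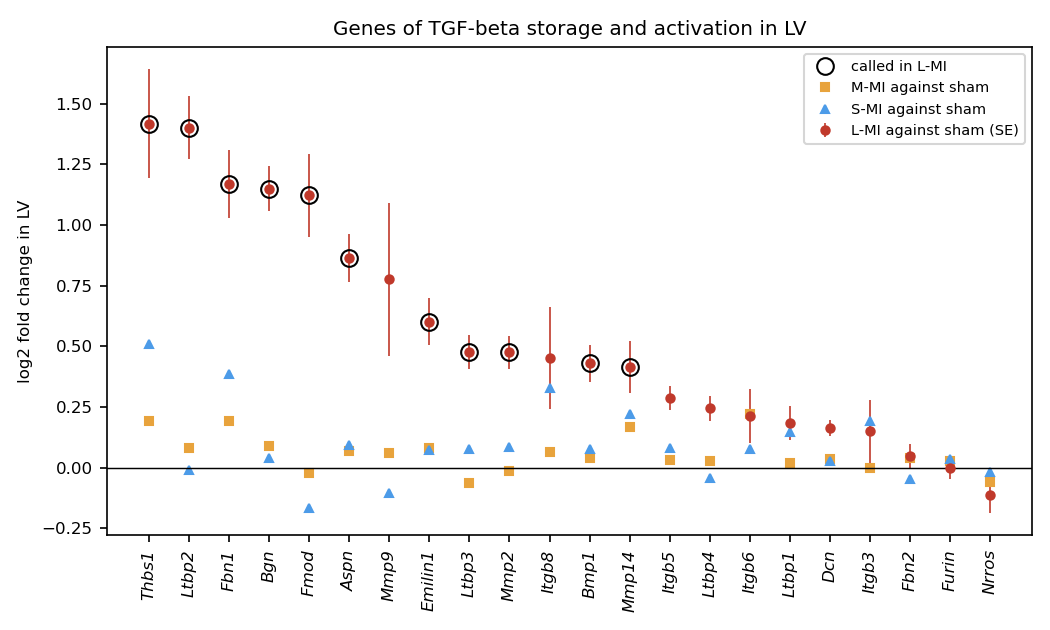
Log2 fold change in LV (y axis) of the 22 measured genes of TGF-β storage and activation with L-MI (circles, bars are SEs), M-MI (squares) and S-MI (triangles), each against sham. The 11 ringed genes were called in L-MI, and 20 of the 22 changes with L-MI are above 0.

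Genes known to respond to TGF-β included 25 measured of 27, of which 11 were called higher and 0 lower, with a median of 0.30. Postn, which encodes the matrix protein periostin, rose by 3.0 (SE 0.23, adjusted p = 1.05e-07), Fn1, fibronectin, by 1.56 (SE 0.16, adjusted p = 2.35e-06), Timp1, an inhibitor of metalloproteinases, by 1.23 (SE 0.14, adjusted p = 6.54e-06), and Lox, the collagen crosslinking enzyme lysyl oxidase, by 0.76 (SE 0.11, adjusted p = 7.36e-05). Of the 12 BMP-responsive genes 1 was called, Hamp, which encodes the iron hormone hepcidin and which BMP6 induces in the liver, with 2.03 (SE 0.34, adjusted p = 0.000328). Runx2, Nkx2-5 and Tbx20 changed by 0.36 (adjusted p = 0.00129), -0.21 (adjusted p = 0.013) and 0.33 (adjusted p = 0.0533), all below 1.3-fold. The other inhibitors gave 2 calls among 16 measured of 24, Pmepa1, a membrane protein that TGF-β induces and that restrains its Smads, with 0.58 (SE 0.07, adjusted p = 2.32e-05), and Nbl1, a secreted BMP antagonist, with 0.63 (SE 0.11, adjusted p = 0.000465). The other ligands and receptors gave 0 calls among 14 measured of 20. Some of these lists' genes stand in the tables of the study on these same arrays, so their counts are no independent evidence.

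Markers of some cell types moved together with the members in L-MI, where 2.08% of all transcript clusters were called higher and 1.14% lower. All 9 macrophage and monocyte markers were called higher, with a median change of 0.84, and their summed log2 signal ranged from 12.32 to 12.97 with L-MI against 11.70 to 11.92 in the sham group. Of 8 fibroblast markers 4 were called higher, with sums of 14.01 to 14.25 against 13.78 to 13.90, and of 6 myofibroblast markers 4, with sums of 12.15 to 12.56 against 11.70 to 11.98. The fibroblast and myofibroblast lists share Col1a1, Col1a2, Col3a1, Postn, Acta2, Tagln and Comp with the TGF-β targets. The fibroblast list also shares Dcn with the genes of TGF-β storage and activation. Of 10 cardiomyocyte markers 0 were called, with sums of 16.42 to 16.51 against 16.49 to 16.53, and of 6 endothelial markers 0. Among lymphocyte, neutrophil and platelet markers Cd4, which macrophages of the rat also carry, was the sole call (1 of 7 T cell markers), and of 3 erythroid markers Slc4a1 was called lower. No marker of the defining lists was at 0, which the array scale does not give. What part these cells had in the change of Tgfb1, Tgfb2, Inhba, Gdf15, Bmp6, Fstl1 and Fstl3 was not tested.

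In PBMCs a call required a 1.2-fold change or more and an unadjusted p of 0.05 or less, and 1 of the 50 members met this. The methods of the study name these limits without saying whether the p was adjusted, while the heading of its PBMC gene list speaks of adjustment, and the unadjusted p was chosen here. This was Tgfbr3, betaglycan, the coreceptor that presents TGF-β2 and binds inhibin. Higher calls made up 0.486% and lower calls 0.438% of all transcript clusters, and 0 of the 29214 passed at an adjusted p of at most 0.05, where the smallest was 0.541. The log2 signal of Tgfbr3 was 6.59, 6.49, 6.48, 6.72 and 7.29 in L-MI, and ran from 6.32 through 6.42 to 6.58 in the sham group. The groups overlapped, and replicate 5 stood above all others. Tgfbr3 changed by 0.27 (SE 0.13, unadjusted limma p = 0.0487), with an exact two-sided permutation p of 0.0433 over 462 splits, whose smallest possible p is 0.00433. Without L-MI replicate 5 the change was 0.13 and the call was lost, and it was also lost without L-MI replicate 4 and without any of the sham replicates but the 4th.

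Bmp7 had a change of 0.25 in PBMCs (unadjusted limma p = 0.0443, exact permutation p = 0.0779), below 1.2-fold, and was called without L-MI replicate 1, L-MI replicate 3 or sham replicate 4. The receptor Acvr2b had an exact permutation p of 0.0476 with a change of 0.09. Members with an unadjusted limma p under 0.05 numbered 2 of 50, where 3.77% of all transcript clusters had one. By their lists, 0 of the 10 TGF-β and activin ligands, 0 of 9 BMP ligands, 1 of 10 receptors and 0 of 8 Smads were called, and the median of all members was 0.03 against -0.00 for all transcript clusters.

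Of the 7 members called in LV, 0 were called in PBMCs. Tgfb2 gave 7.51, 6.58, 7.05, 6.74 and 9.47 in PBMCs of L-MI and 6.47 to 7.09 in the sham group, with a difference of 0.62 (SE 0.41, exact permutation p = 0.273) that rested on 1 array at 9.47. Tgfb1 lay between 11.36 and 11.70 with L-MI and between 11.31 and 11.55 in the sham group. The difference was 0.03, with an interval from -0.13 to 0.19. In PBMCs the sums of 3 platelet markers were 13.77 to 14.46 with L-MI and 13.52 to 14.35 in the sham group. Which cells gave the Tgfb1 signal was not tested. Inhba had a difference of 0.00, Fstl1 and Fstl3 -0.00 each, Gdf15 -0.06 and Bmp6 -0.12. The signals of Fstl1 lay between 5.28 and 5.68 in PBMCs, among the 30% dimmest transcript clusters, where a change may not be measurable. Of the 50 members 37 lay above that limit in PBMCs and 44 in LV.

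The difference between the tissues was tested by an interaction term over the 22 arrays of both. It passed an adjusted p of 0.05 for 4 of the 50 members, where 2.55% of all transcript clusters passed, and 1.39% in the direction of LV. The change with L-MI was larger in LV than in PBMCs by 0.85 for Fstl1 (SE 0.11, adjusted p = 0.000145), 0.73 for Inhba (SE 0.14, adjusted p = 0.00533), 0.58 for Bmp6 (SE 0.13, adjusted p = 0.0142) and 0.71 for Fstl3 (SE 0.18, adjusted p = 0.037). All 4 were dim in PBMCs. Besides Fstl1, the PBMC sham means of Inhba (5.94), Bmp6 (6.13) and Fstl3 (6.47) lay below the PBMC median of 6.99. That of Inhba was close to the limit of the 30% dimmest (5.93). Whether a change of these genes could be measured in PBMCs was not tested. For Fstl3 the adjusted p exceeded 0.05 when any of 13 of the 22 arrays was left out, reaching 0.0766 without LV L-MI replicate 5. Gdf15 (0.48, adjusted p = 0.0601), Tgfb1 (0.37, adjusted p = 0.0699) and Tgfb2 (0.38, adjusted p = 0.812) were not shown to differ between the tissues. Tgfb1 did pass without PBMC L-MI replicate 1 (adjusted p = 0.0209), and with L-MI replicate 1 left out in both tissues (adjusted p = 0.0453). Gdf15 passed without LV sham replicate 5 (adjusted p = 0.0268), without PBMC sham replicate 3 (adjusted p = 0.0396) and with the replicate number as a block (adjusted p = 0.0493). Without LV L-MI replicate 2, 7 members passed, as Tgfb1, Inha and Gdf15 joined the 4, and the background rose to 3.61% of transcript clusters.

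**Figure D5:**
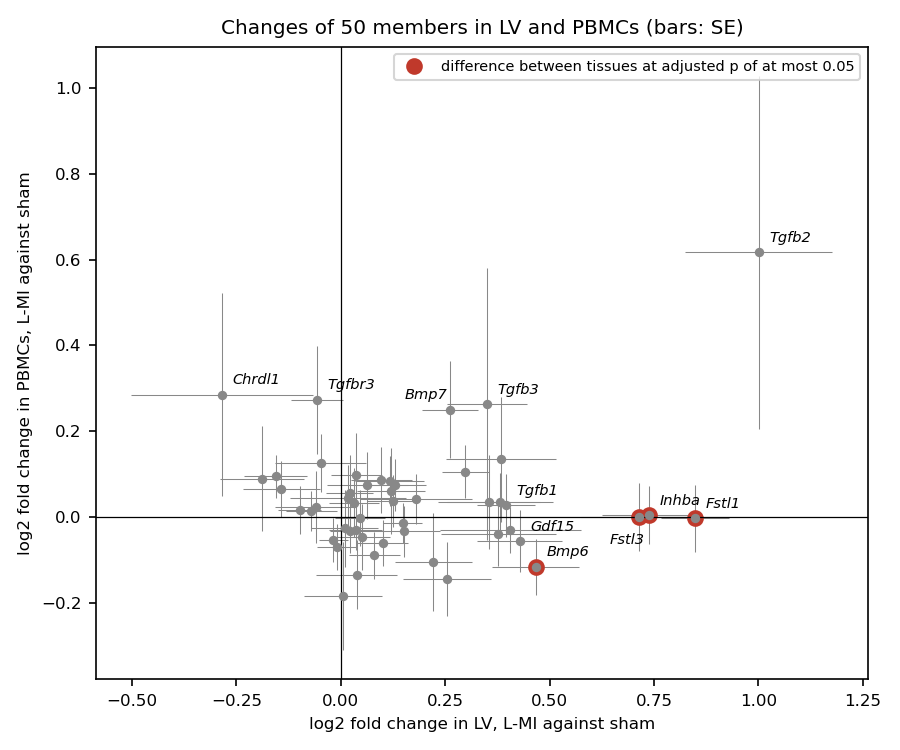
Log2 fold change with L-MI in LV (x axis) and in PBMCs (y axis) of the 50 members, with bars of 1 SE. Large points are the 4 members whose changes differed between the tissues, Inhba, Bmp6, Fstl1 and Fstl3, which lie near 0 or just below it in PBMCs. Their PBMC signals were below the median of all transcript clusters there.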

How the data were processed

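The deposited log2 signals of 29214 transcript clusters on 34 arrays (23 of LV, 11 of PBMCs) were used as the authors made them, by robust multiarray averaging (RMA) in Partek, versions not given. No source names the log base, and base 2 was assumed because RMA uses it. Arrays have no read depth. Platform annotation gave 1 symbol for 15310 transcript clusters, several for 323 and none for 13581, and only the first were named. With limma 3.58.1 in R 4.3.3, 1 model over the 23 LV arrays gave the LV comparisons, another over the 11 PBMC arrays that of PBMCs, and one over 22 arrays the interaction, which takes arrays of both tissues as independent since the sources used here do not say which share a rat. All transcript clusters were tested. Thresholds follow the study's methods, which do not say whether the p for PBMCs was adjusted. Exact permutation tests used scipy 1.17.1 in Python 3.11.15, and figures matplotlib 3.10.9. The fits were tested on simulated data. Members and gene lists were chosen with earlier results of these data known. Described with values were members called in LV, in PBMCs or in the interaction, Tgfb1, Tgfb2, Tgfb3, Tgfbr1, Smad2, Smad3 and Smad4 in any case, the member with the smallest p of each role, and at most 4 genes of each list. Others named were chosen after their values were seen. Promoters came from RefSeq (GRCr8). Alternatives were other thresholds, filters, scalings, weights, blocks and left-out arrays.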

Additional observations from a re-analysis of the deposited data

Results flagged for a closer look

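The change with L-MI differed between LV and PBMCs, by the interaction term, for Inhba (0.73 on the log2 scale), Bmp6 (0.58), Fstl1 (0.85) and Fstl3 (0.71). In PBMCs these genes had signals below the median of all transcript clusters, as given above.

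In 9 of 126 tests, over 21 members in 6 groups of arrays, 1 array stood far from the rest of its group, where chance gives about 1 in 20. In PBMCs of L-MI, Tgfbr3 was 7.29 in replicate 5 with the next array at 6.72, and this is the sole member called in PBMCs. Bmp4 was 6.68 in replicate 4 of that group with the next at 6.02, and Tgfb1 was 11.70 in replicate 1 with the next at 11.45. In PBMCs of the sham group Gdf15 was 6.44 in replicate 3 with the next at 6.64. In LV of M-MI 4 members each had a different array apart. Bmp6 was 9.09 in replicate 5 with the next at 8.76, Smad3 was 7.59 in replicate 6 with the next at 7.45, Tgfb3 was 9.02 in replicate 2 with the next at 8.76, and Tgfbr1 was 8.03 in replicate 4 with the next at 8.28. In LV of S-MI, Inha was 8.73 in replicate 4, an array that also stood at one end of the first component, with the next at 8.08. For the 7 members called in LV of L-MI, 0 of the 5 L-MI arrays was set apart in this way.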

How the results depend on the processing

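No value reversed its sign where it was called. In LV of L-MI against sham, 7 members and 941 transcript clusters were called. With array weights the members numbered 11, at a fold of at least 1.5 they numbered 4 (352 transcript clusters), and without a fold threshold 11 (2769). Leaving out single arrays gave 5 to 13 members, with 5 without L-MI replicate 5 (2.88% of transcript clusters) and 13 without L-MI replicate 2 (4.09%). Median centring gave 524 higher and 431 lower transcript clusters in place of 608 and 333, and took Tgfb1 (0.37) below the fold threshold. Against M-MI (7 members, 784 transcript clusters) the members were 11 with array weights, 3 at a fold of 1.5 (260) and 5 to 12 with single arrays left out, and 2196 transcript clusters passed without a fold threshold. The 12 came without L-MI replicate 2, where 3.4% of transcript clusters were called. Counts of transcript clusters with array weights are not given here, so the members called with them cannot be set against a background. Against S-MI (8 and 725) they were 4 at a fold of 1.5 (254), 4 with only the compared groups fitted, 6 to 10 with single arrays left out, and 5 without the sham (4, 6) and S-MI (4, 5) arrays at one end of the first component, a choice made after seeing the data, and 2258 transcript clusters passed without a fold threshold. The 10 against S-MI came without L-MI replicate 2, where 3.26% of transcript clusters were called. With M-MI, leaving out single arrays gave 0 to 1 transcript cluster, 1 without sham replicate 1 and no member. In PBMCs (1 member higher, 270 transcript clusters) an adjusted p gave 0 and 0, no fold threshold 2 and 1100, and no moderation 0 members. Leaving out single arrays gave 0 to 2 members higher, 0 to 1 lower (Id3, without L-MI replicate 2) and 238 to 475 transcript clusters, with 475 without L-MI replicate 3. The interaction passed for 4 members, and for 3 to 7 with single arrays left out. For example, 3 passed without LV L-MI replicate 4 (2.04% of transcript clusters) and 7 without LV L-MI replicate 2 (3.61%). Causes of these shifts were not tested, apart from the thresholds' own construction.

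Arrays with the same replicate number did not deviate together: the correlation was above 0.1 in 2 of 33 pairs in LV, 1 of 5 in PBMCs and 2 of 11 across tissues, so the number was not taken as pairing. With the replicate number as a block, 7 members were called in L-MI against sham (928 transcript clusters), 8 against M-MI (775) and 8 against S-MI (710). In PBMCs 1 member was called (457 transcript clusters), and in the interaction 5 (839).

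The dimmest members, Mstn, Bmp3, Bmp5, Bmp10, Bmpr1b and Grem1 in LV, lay among the 30% of transcript clusters with the lowest signal, near the floor of the array.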
